A study of Mus musculus with 16 samples.

Results

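Matrix metalloproteinases (MMPs) are zinc enzymes that cut collagen, elastin and other proteins of the extracellular matrix. They are made as inactive proenzymes, and tissue inhibitors of metalloproteinases (TIMPs) block their active site. In liver they are known from hepatic stellate cells, macrophages, neutrophils and endothelial cells, and the balance between MMPs and TIMPs is known for its part in the build-up and removal of scar matrix. The genes described here were taken by symbol from the count table. They are Mmp2, Mmp9, Mmp12, Mmp13, Mmp14, Mmp15, Mmp19, Timp1, Timp2 and Timp3, and all 10 were found among 40324 symbols.

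Liver RNA was measured in 16 db/db mice, a strain whose defective leptin receptor leads to obesity and diabetes. The 8 arcA mice had received an adeno-associated virus (AAV8) encoding arcA, and the 8 controls had received AAV8 encoding GFP. Mice of both groups were db/db littermates injected at about 5 weeks of age, and livers were taken at 10 weeks of age, 5 weeks after infection. The labels name neither the promoter of the vector nor the product of arcA. Replicate numbers name separate livers of a group.

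Total counts ranged from 37325610 to 45874797 per arcA library and from 28912563 to 53520828 per GFP library. In GFP 2, GFP 3 and GFP 5, a gene that overlaps ribosomal RNA sequence took 11.8% to 19.4% of counts, against 2.29% to 7.37% in the other libraries. Macrophage markers were summed as the CPM (TMM-scaled counts per 1e6 counts) of 12 genes, and arcA 3 had the highest sum of the arcA livers. Each log2 fold change sets arcA over GFP and comes from edgeR's quasi-likelihood test across 14476 genes with Benjamini-Hochberg adjustment, and a gene counted as called at an adjusted p under 0.05. In bulk tissue, fewer cells of a type and less RNA per cell cannot be told apart.

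Mmp12 and Mmp13 fell most among the 10 genes, Timp2 fell by a smaller amount, and Mmp9 and Mmp19 rose. The calls were thus 3 lower and 2 higher, against a background of 6.57% of all tested genes called lower and 4.26% called higher (10.8% in either direction, and 5.65% to 20.7% over the alternative settings). Over all genes, 39.3% of calls were higher, against 24.0% with library size alone and 1.8% with scaling on hepatocyte markers. The hepatocyte markers themselves had a median log2 fold change of 0.18. Scaling on them shifted the median of all genes by -0.22, so calls of lower genes under that setting carry this shift. Medians of the log2 fold change were 0.03 over the 7 metalloproteinases, -0.59 over the 3 inhibitors and 0.00915 over all genes tested. All 10 genes passed the filter on low counts, but not alike. Mmp13 passed through the GFP livers alone (8 of 8 over the limit, against 0 of 8 arcA livers) and Mmp12 mainly through them (1 arcA and 8 GFP livers). Mmp9 passed with 7 arcA and 2 GFP livers over the limit and Timp1 with 3 arcA and 7 GFP livers. Genes that pass through 1 group had to differ to be tested, so the counts above describe the list and are no support for a difference.

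**Figure D1:**
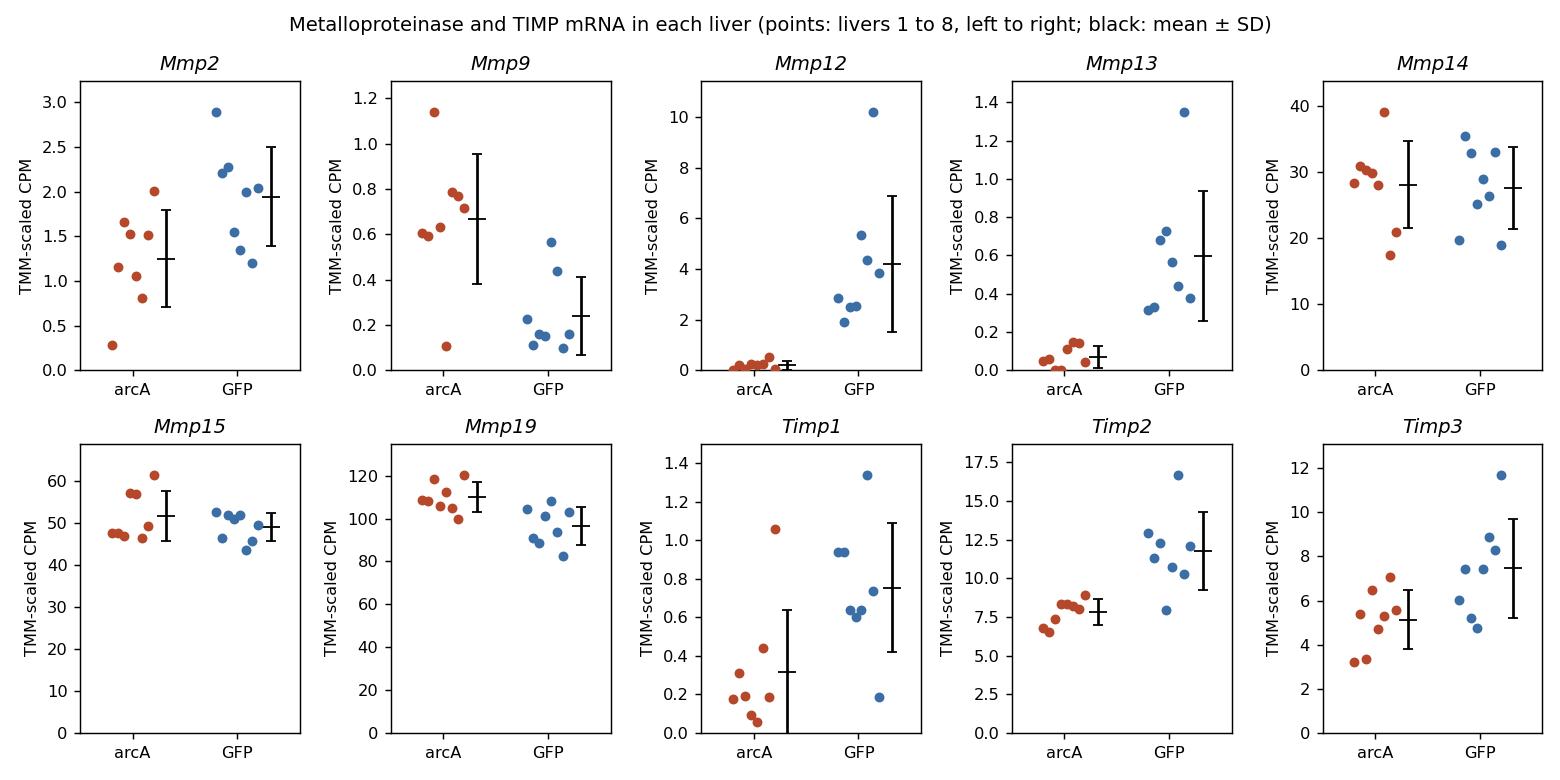
TMM-scaled CPM of each gene (y axis, linear from 0) in 8 arcA livers and 8 GFP livers (points, livers 1 to 8 from left to right), with the mean and SD in black. The groups do not overlap for Mmp12 and Mmp13, and 7 of 8 arcA livers lie above every GFP liver for Mmp9.

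The promoter sequences of the called genes are shown because Mmp12 and Mmp13, which had the largest falls, lie close together in 1 gene cluster. RefSeq promoter windows (build GRCm38.p6, 250 bases before to 50 after an annotated start) were matched for 7 of the 10 genes in 8 windows; the promoters of Mmp2, Mmp9 and Mmp19 were not analysed here. The windows were searched on both strands for TGANTCA, the site of AP-1 (Fos and Jun) factors, which reads the same on both strands, and for TATAAA, the core of a TATA box, which reads TTTATA on the other strand. Matches are in capitals, and no match overlapped another.
Mmp13, chr9:7272264-7272563, plus strand: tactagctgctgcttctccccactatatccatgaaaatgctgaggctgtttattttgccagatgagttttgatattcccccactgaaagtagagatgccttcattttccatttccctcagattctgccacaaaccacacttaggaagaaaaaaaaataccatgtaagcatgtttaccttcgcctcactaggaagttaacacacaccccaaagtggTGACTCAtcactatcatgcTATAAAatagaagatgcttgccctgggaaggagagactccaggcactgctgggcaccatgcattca
Mmp12, first start, chr9:7344147-7344446, plus strand: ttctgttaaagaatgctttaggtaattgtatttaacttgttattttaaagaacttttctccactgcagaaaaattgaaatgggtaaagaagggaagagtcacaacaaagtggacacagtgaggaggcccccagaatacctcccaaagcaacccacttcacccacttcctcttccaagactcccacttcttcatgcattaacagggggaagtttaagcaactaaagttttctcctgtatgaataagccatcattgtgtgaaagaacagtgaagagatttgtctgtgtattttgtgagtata
Mmp12, second start, chr9:7347124-7347423, plus strand: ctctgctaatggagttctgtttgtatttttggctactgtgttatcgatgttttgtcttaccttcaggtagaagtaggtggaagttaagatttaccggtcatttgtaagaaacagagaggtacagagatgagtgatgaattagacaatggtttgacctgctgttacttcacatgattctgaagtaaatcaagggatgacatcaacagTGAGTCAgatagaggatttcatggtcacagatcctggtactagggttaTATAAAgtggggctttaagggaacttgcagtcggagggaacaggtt
Timp2, chr11:118355362-118355661, minus strand: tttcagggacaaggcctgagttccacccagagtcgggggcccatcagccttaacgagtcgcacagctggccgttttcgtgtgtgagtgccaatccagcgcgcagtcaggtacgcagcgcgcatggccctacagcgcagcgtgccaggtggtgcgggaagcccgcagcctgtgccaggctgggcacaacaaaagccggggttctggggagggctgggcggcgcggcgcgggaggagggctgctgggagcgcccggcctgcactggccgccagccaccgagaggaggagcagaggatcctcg

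The Mmp13 window holds TGACTCA beginning 35 bases before the start site and TATAAA beginning 16 bases before it. The window at the second Mmp12 start holds TGAGTCA beginning 44 bases before the start and TATAAA beginning 4 bases after it, and the window at the first Mmp12 start holds neither. No other window of the 10 genes holds either motif. Among all 32851 windows of this length, 7.81% hold TGANTCA and 13.6% hold TATAAA. GC content is 43.7% in the Mmp13 window, 38.7% and 40.7% in the Mmp12 windows, and 68.7% in the Timp2 window. The counts do not show which Mmp12 start was used, and a match is a description of the letters, not a bound site.

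Mmp12 encodes macrophage elastase, which cuts elastin and is known from activated macrophages (chromosome 9, 7344381 to 7369499, GRCm38, plus strand). Its level was lowest at 0, median 0.221 and highest 0.512 CPM in arcA livers, against 1.91, 3.35 and 10.2 CPM in GFP livers. Every arcA liver lay below every GFP liver, and GFP 7 stood highest. Means were 0.190 ± 0.164 CPM in arcA livers and 4.19 ± 2.67 CPM in GFP livers (SD, n = 8 each), from 62 counts over the arcA group and 1463 over the GFP group. The log2 fold change was -4.46 (SE 0.506, adjusted p = 5.82e-05), or 22.0-fold lower in arcA livers. Of all tested genes, the groups did not overlap with lower arcA values in 1.2% and with higher arcA values in 0.566%, or 1.76% in all. Mmp12 shares 157 exon bases with Mmp1b on the other strand, but Mmp1b had at most 0.0253 CPM in an arcA and 0.0219 CPM in a GFP liver.

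Mmp13 encodes collagenase-3, an interstitial collagenase of rodents (chromosome 9, 7272514 to 7283331, plus strand). Its lowest, median and highest levels were 0, 0.0534 and 0.148 CPM in arcA livers, against 0.314, 0.503 and 1.35 CPM in GFP livers. Again no arcA liver reached the lowest GFP liver, and GFP 7 was again the highest. Over the groups it had 22 counts in arcA and 203 counts in GFP livers, so its level rests on few reads. Its log2 fold change was -3.11 (SE 0.48, adjusted p = 0.000397), with means of 0.0683 ± 0.0579 CPM in arcA and 0.598 ± 0.342 CPM in GFP livers (SD, n = 8 each). Without GFP 7, the log2 fold change was -4.12 for Mmp12 and -2.79 for Mmp13, and both stayed called.

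The 2 genes lie 61049 bases apart in a cluster of metalloproteinase genes on chromosome 9, between 7272514 and 7699585. Of 27 MMP and TIMP genes looked up, 10 lie there, and Mmp12 and Mmp13 were the 2 that passed the filter. The other 8 (Mmp1a, Mmp1b, Mmp3, Mmp7, Mmp8, Mmp10, Mmp20 and Mmp27) had at most 20 counts in any liver. Mmp8, the neutrophil collagenase, had 33 counts over the arcA group and 39 over the GFP group, and Mmp7, matrilysin, had 23 and 40.

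Of the 2 gelatinase genes, 1 passed the test. Mmp9 encodes gelatinase B, which cuts denatured and basement membrane collagen and is stored in neutrophil granules (chromosome 2, 164940780 to 164955850, plus strand). Mmp9 levels ran from 0.109 through a median of 0.673 to 1.14 CPM in arcA livers, against 0.1, 0.160 and 0.568 CPM in GFP livers. Of the arcA livers, 7 lay above the highest GFP liver, and arcA 5 lay below the GFP median. The means were 0.668 ± 0.286 CPM in arcA and 0.239 ± 0.171 CPM in GFP livers (SD, n = 8 each), with 223 and 72 counts. Mmp9 rose by 1.51 (SE 0.393, adjusted p = 0.0166), or 2.85-fold. The call was lost without arcA 3 and arcA 8 (1.31, adjusted p = 0.0544), with a replicate block (adjusted p = 0.0544), with limma voom (adjusted p = 0.0699) and with surrogate variables (adjusted p = 0.0977), while it held in each of the 16 fits without 1 library.

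Neutrophil markers are given beside Mmp9. Of 10 markers, 3 passed the filter and 0 were called with edgeR, and 0 had an unadjusted p under 0.05; DESeq2 also called 0. The median log2 fold change of the 3 was 0.49. Their summed level, over all 10, ranged from 2.03 to 21.4 CPM in arcA livers (median 3.01), against 3.24 to 5.99 CPM in GFP livers (median 4.21). The sum was highest in arcA 6 and next in arcA 3, and these were also the 2 livers with the most Mmp9 (0.788 CPM in arcA 6 and 1.14 CPM in arcA 3). The rank of arcA 6 is not firm, as its 32 Mmp9 counts stand beside 33 each in arcA 7 (0.769 CPM) and arcA 8 (0.714 CPM). Mpo was at 0 in 5 arcA and 4 GFP livers and Camp in 6 arcA and 4 GFP livers, and both encode granule proteins. Their means were still higher in arcA livers, with wide spread. Mpo had 0.177 ± 0.358 CPM against 0.101 ± 0.191 CPM in GFP livers, and Camp 0.169 ± 0.441 against 0.0757 ± 0.093 CPM (SD, n = 8 each). Of the other untested markers, Ngp, Retnlg, Elane and Ly6g also had higher arcA means, and Cxcr2 a lower one. Medians did not follow the means. The arcA median was lower for Mpo (0 against 0.025 CPM), Camp (0 against 0.0268), Ngp (0.0976 against 0.136) and Retnlg (0.111 against 0.117). It was higher for Elane, Ly6g and Cxcr2. A single arcA liver held 128 of the 168 arcA counts of Ngp and 51 of the 55 of Camp. All of these untested markers were named after their values were seen. S100a8 and S100a9, which encode calprotectin, differed by 0.49 and 0.84 in log2 (adjusted p = 0.533 and 0.402), and Csf3r, the receptor of the neutrophil growth factor G-CSF, by -0.50 (adjusted p = 0.222). Their arcA medians were all lower, at 0.884 against 1.05 CPM for S100a8, 0.85 against 0.996 for S100a9 and 1.08 against 1.45 for Csf3r. The part of neutrophils in the Mmp9 result was not tested.

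Mmp2 encodes gelatinase A, known from stellate cells and fibroblasts (chromosome 8, 92827291 to 92853420, plus strand). It had a lowest level of 0.278, a median of 1.33 and a highest level of 2.01 CPM in arcA livers, against 1.2, 2.02 and 2.89 CPM in GFP livers. All 8 arcA livers lay below the GFP median, but the ranges overlapped. Its log2 fold change was -0.62 (SE 0.272, 95% interval -1.16 to -0.09 before adjustment, adjusted p = 0.155), so Mmp2 did not pass, though it did with hepatocyte-marker scaling (-0.82, adjusted p = 0.0344). Leaving out 1 library moved the value between -0.76 and -0.47, the smallest change being without arcA 1, the liver with the lowest level.

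The membrane-type and tissue metalloproteinases made up most of the family's RNA. Mmp14 encodes MT1-MMP, which sits in the cell membrane and activates the MMP2 proenzyme together with TIMP2 (chromosome 14, 54431612 to 54445364, plus strand). It ranged from 17.4 to 39.1 CPM in arcA livers (median 29.1), against 19.0 to 35.4 CPM in GFP livers (median 27.7). The groups overlapped fully, and the log2 fold change was 0.03 (SE 0.163, 95% interval -0.29 to 0.35, adjusted p = 0.943). Mmp15 encodes MT2-MMP, another membrane-bound enzyme (chromosome 8, 95352268 to 95375080, plus strand), with 46.6 to 61.6 CPM in arcA livers (median 48.6), against 43.6 to 52.7 CPM in GFP livers (median 50.3). The 3 highest arcA livers (4, 5 and 8) lay above all GFP livers, but the difference did not pass (0.08, SE 0.0645, 95% interval -0.05 to 0.20, adjusted p = 0.512). Scaling on hepatocyte markers, which shifted the median of all genes by -0.22, gave -0.21 for Mmp14 and -0.13 for Mmp15.

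Mmp19 encodes a secreted metalloproteinase that cuts basement membrane proteins (chromosome 10, 128790910 to 128800824, plus strand). It had a lowest level of 99.9, a median of 108.5 and a highest level of 120.5 CPM in arcA livers, against 82.4, 97.3 and 108.1 CPM in GFP livers. All 8 arcA livers lay above the GFP median and 4 above the highest GFP liver. The rise was small (0.19, SE 0.0581, adjusted p = 0.042), or 1.14-fold, with means of 109.9 ± 6.96 CPM in arcA and 96.5 ± 8.95 CPM in GFP livers (SD, n = 8 each). It was called in 3 of the 16 fits without 1 library (adjusted p 0.0309 to 0.111) and in 3 of 13 other settings, and scaling on hepatocyte markers gave -0.02. Mmp19 shares 789 exon bases with Tmem198b on the other strand, which had 1.13 to 2.87 CPM in arcA livers and 1.37 to 2.27 CPM in GFP livers.

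All 3 inhibitors had negative log2 fold changes, and 1 passed the test. Timp2 encodes TIMP-2, which inhibits metalloproteinases and also bridges MT1-MMP and the MMP2 proenzyme (chromosome 11, 118301069 to 118355740, minus strand). Its lowest, median and highest levels were 6.53, 8.08 and 8.93 CPM in arcA livers, against 7.94, 11.7 and 16.7 CPM in GFP livers. The ranges met only because of GFP 4 at 7.94 CPM, as the other 7 GFP livers had 10.3 CPM or more. Timp2 fell by 0.59 (SE 0.112, adjusted p = 0.00201), with means of 7.81 ± 0.834 CPM in arcA and 11.8 ± 2.5 CPM in GFP livers (SD, n = 8 each). The call held in all 29 alternatives, with values from -0.82 to -0.50.

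Timp1 encodes TIMP-1, an inducible inhibitor known to rise in liver fibrosis (chromosome X, 20870166 to 20874735, plus strand). It had a lowest level of 0.0543, a median of 0.188 and a highest level of 1.06 CPM in arcA livers, against 0.188, 0.687 and 1.34 CPM in GFP livers. Of the arcA livers, 7 lay below the GFP median, and arcA 8 stood far above the rest of its group. The log2 fold change of -1.24 (SE 0.459, 95% interval -2.14 to -0.34, adjusted p = 0.0908) did not pass. Without arcA 8 it was -1.86 (adjusted p = 0.005), and without GFP 8, the lowest GFP liver, -1.40 (adjusted p = 0.048). With all 16 livers it passed with limma voom (-1.84, adjusted p = 0.0109), DESeq2 (-1.26, adjusted p = 0.0484) and hepatocyte-marker scaling (-1.49, adjusted p = 0.0352). Timp1 lies in an intron of Syn1 on the other strand with no shared exon, and Syn1 had 0.151 to 0.379 CPM in arcA livers and 0.277 to 0.856 CPM in GFP livers.

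Timp3 encodes TIMP-3, which binds to the matrix and also inhibits ADAM and ADAMTS enzymes (chromosome 10, 86300372 to 86349506, plus strand). Its lowest, median and highest levels were 3.21, 5.34 and 7.06 CPM in arcA livers, against 4.76, 7.44 and 11.7 CPM in GFP livers. All 8 arcA livers lay below the GFP median, and 3 lay below the lowest GFP liver. The log2 fold change was -0.54 (SE 0.189, 95% interval -0.91 to -0.17, adjusted p = 0.0756) and did not pass, though it did with DESeq2 (-0.55, adjusted p = 0.0274), with a replicate block (-0.53, adjusted p = 0.0304), with hepatocyte-marker scaling (-0.77, adjusted p = 0.0206) and in 3 of the 16 fits without 1 library. Timp3 shares 1733 exon bases with Syn3 on the other strand, which had 0.581 to 1.02 CPM in arcA livers and 0.403 to 1.23 CPM in GFP livers.

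**Figure D2:**
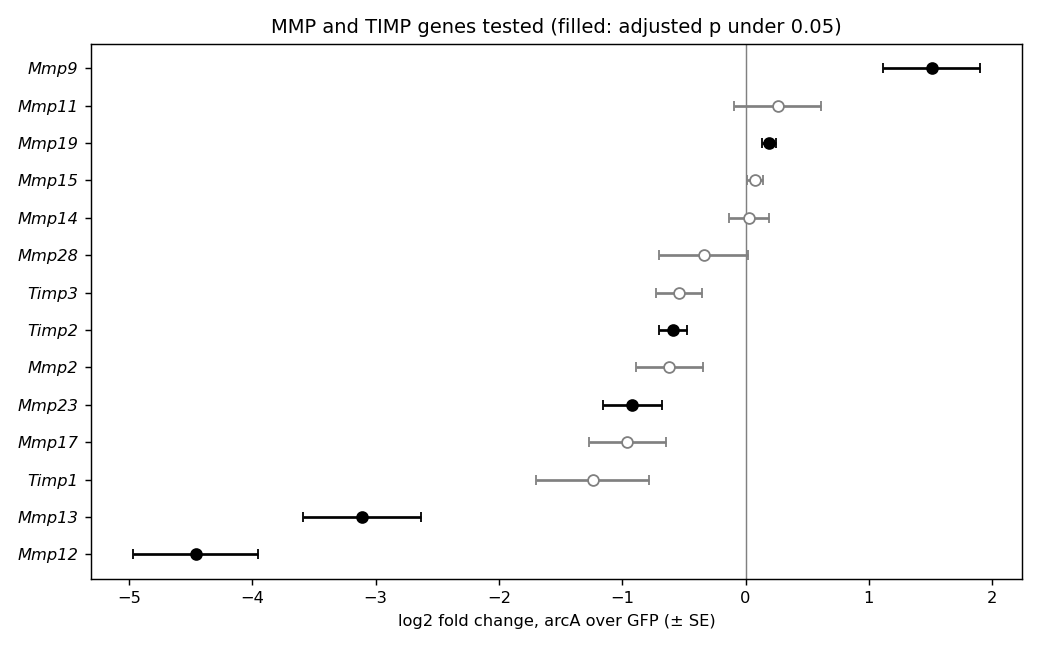
Log2 fold change of arcA over GFP (x axis) with its SE for the 14 MMP and TIMP genes that passed the filter, ordered by value; filled points had an adjusted p under 0.05. Mmp12 (-4.46) and Mmp13 (-3.11) lie far to the left of the others, and Mmp9 (1.51) farthest to the right.

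Levels of different genes were compared per length, as reads per kilobase of merged exons, scaled to library depth (RPKM), and are a description. Merged exons take in every annotated exon, whether used in these livers or not. They came to 7237 bases for Mmp12, 8144 for Timp3, 2673 for Mmp13 and 888 for Timp1. A gene with unused exons would thus rank too low. Mmp19 was the most abundant of the 10 in both groups, with 31.1 ± 1.97 RPKM in arcA and 27.3 ± 2.53 RPKM in GFP livers (SD, n = 8 each). It made up 67.6% of the summed RPKM of the 7 metalloproteinases in arcA livers (64.9% to 69.7%) and 64.3% in GFP livers (58.9% to 68.1%). Mmp15, Mmp14, Timp2 and Timp3 came next, in this order in both groups, with 9.59, 4.71, 2.0 and 0.630 RPKM in arcA livers, against 9.10, 4.62, 3.03 and 0.916 RPKM in GFP livers. These 4 kept their order in each arcA liver, and in GFP livers Mmp14 exceeded Timp2 in 7 of 8.

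The lower end of the order was not the same in the groups. In arcA livers it ran Mmp2 (0.371), Timp1 (0.353), Mmp9 (0.189), Mmp12 (0.0262) and Mmp13 (0.0255 RPKM), against Timp1 (0.848), Mmp12 (0.579), Mmp2 (0.575), Mmp13 (0.224) and Mmp9 (0.0676 RPKM) in GFP livers. Mmp9 was above Mmp12 in 8 of 8 arcA livers, and Mmp13 was above Mmp9 in 8 of 8 GFP livers. Neighbours that were not separated were Mmp2 and Timp1 (4 of 8 livers), Timp1 and Mmp9 (5 of 8) and Mmp12 and Mmp13 (4 of 8) in arcA livers, and Timp3 and Timp1, Timp1 and Mmp12, and Mmp12 and Mmp2 (3, 5 and 3 of 8) in GFP livers. The summed RPKM of the 3 inhibitors was 2.99 ± 0.570 in arcA and 4.79 ± 1.0 in GFP livers, and that of the metalloproteinases 46.0 ± 2.62 and 42.5 ± 2.23 (SD, n = 8 each).

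**Figure D3:**
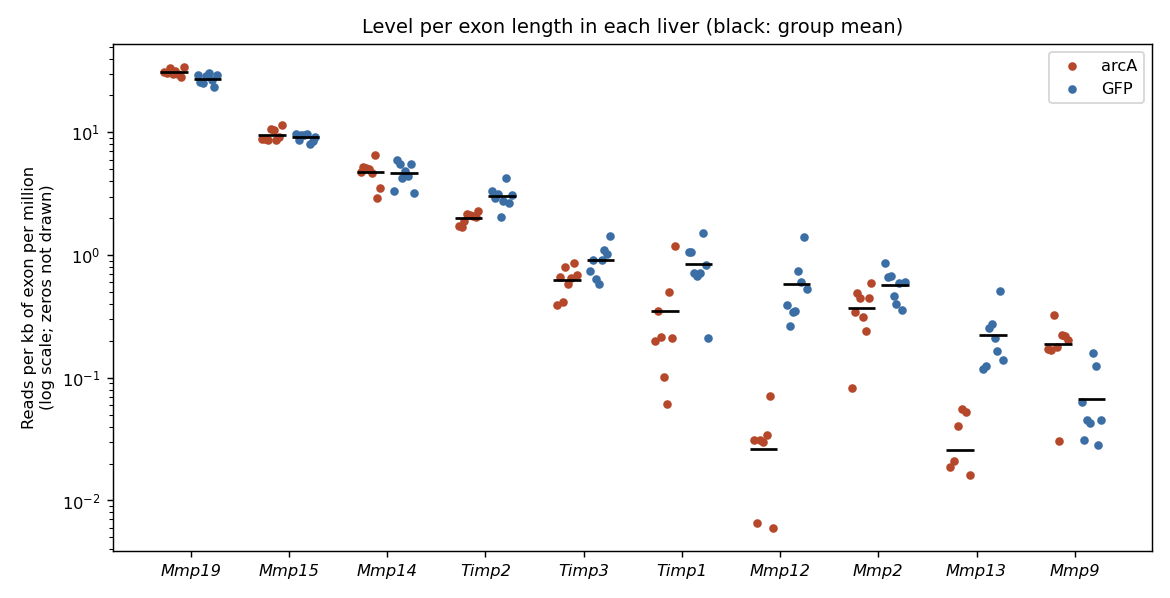
Level per exon length (RPKM, log scale; livers with 0 counts not drawn) of the 10 genes in arcA and GFP livers, ordered by the GFP mean, with points for livers and black lines for group means. The group means of Mmp19, Mmp15 and Mmp14 lie above those of the inhibitors, while GFP points of Mmp14 and Timp2 overlap, and the arcA and GFP points of Mmp12 and Mmp13 stand clear of each other.

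Variation between livers differed among the genes. The coefficient of variation (SD over mean) was 6.33% in arcA and 9.27% in GFP livers for Mmp19, 11.4% and 6.98% for Mmp15, and 10.7% and 21.2% for Timp2. In arcA livers it was largest for Timp1 (103.7%, against 44.4% in GFP livers), followed by Mmp12 (86.4% and 63.7%) and Mmp13 (84.8% and 57.1%). In GFP livers it was largest for Mmp9 (42.7% in arcA and 71.5% in GFP livers). The largest values belong to genes with few reads. Over the arcA group Timp1, Mmp12 and Mmp13 had 107, 62 and 22 counts, against 36114 for Mmp19. Over the GFP group Mmp9 had 72, against 30297 for Mmp19. Counting noise is part of these values and was not separated from variation between livers. MT1-MMP, TIMP-2 and the MMP2 proenzyme form 1 activation complex, so relations between their genes were computed within each group, with Mmp12 and Timp1 as a further pair, 8 relations in all. Mmp2 and Timp2 had Pearson's r of 0.53 in arcA livers (exact permutation p = 0.176) and 0.53 in GFP livers (exact permutation p = 0.17), with Spearman's rho of 0.45 (exact permutation p = 0.267) and 0.67 (exact permutation p = 0.0831). Without the 2 livers farthest from the median of Mmp2, r was 0.46 and 0.54. For Mmp14 with Mmp2, r was -0.36 in arcA and -0.38 in GFP livers (exact permutation p = 0.355 and 0.351). None of the 8 relations passed Benjamini-Hochberg adjustment (two-sided exact permutation tests, n = 8 livers each, adjusted p from 0.704 to 0.893 for r), and 0 had an unadjusted p under 0.05 for r or rho.

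Of 17 further MMP and TIMP genes, 4 passed the filter and 1 fell. Mmp23, a membrane-anchored metalloproteinase (chromosome 4, 155650655 to 155653384, minus strand), averaged 0.556 ± 0.199 CPM in arcA and 1.05 ± 0.299 CPM in GFP livers (SD, n = 8 each). Mmp23 fell by 0.92 (SE 0.239, adjusted p = 0.0166), with 6 of 8 arcA livers below the lowest GFP liver. Mmp17, which encodes MT4-MMP, had -0.96 (adjusted p = 0.0514), and its highest GFP value was that of GFP 3, at 1.76 CPM. Mmp11, stromelysin-3, had 0.26 (adjusted p = 0.713) and Mmp28, epilysin, -0.34 (adjusted p = 0.616). The 13 others had at most 20 counts in a liver, and Mmp1a and Mmp10 had 0.

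Among 17 tested genes that activate or control metalloproteinases, 6 fell and 2 rose, and the median log2 fold change was 0.04. For this and the later lists, the background is 6.57% of all tested genes called lower and 4.26% called higher. Genes of the plasminogen system, which can activate MMP proenzymes, were called in both directions. Plat (tissue plasminogen activator) fell by 1.42 (SE 0.252, adjusted p = 0.00124), Plaur (the urokinase receptor) by 1.73 (SE 0.329, adjusted p = 0.0021) and Plau (urokinase) by 0.90. Plg, plasminogen itself, rose by 0.40 (SE 0.0844, adjusted p = 0.00415), with 2524.9 ± 279.9 CPM in arcA and 1908.5 ± 226.1 CPM in GFP livers (SD, n = 8 each). Thbs1 (thrombospondin-1) fell by 1.42 and Cd44, a hyaluronan receptor, by 1.0, while Pcsk6, a proprotein convertase, rose by 0.21. Reck, a membrane inhibitor of metalloproteinases, Bsg, their inducer EMMPRIN, and Furin, which activates membrane-type MMPs, had log2 fold changes of 0.04, 0.06 and 0.06 (adjusted p = 0.897, 0.497 and 0.621); these 3 and Plau, Plg and Pcsk6 were chosen after their values were seen.

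Among related metalloproteinases and matrix substrates, most of the calls were lower. Of 12 tested ADAM and ADAMTS genes, 4 fell, 1 rose and 7 were not called (median -0.43). Adamts2, the procollagen N-proteinase, fell by 0.98 (SE 0.147, adjusted p = 0.00032), Adamts5, an aggrecanase, by 1.01 and Adam15 by 0.51, while Adam9 rose by 0.26. Of 23 tested matrix substrates, 15 fell and 0 rose (median -0.57), or 65.2% called lower, against 6.57% of all tested genes. Of the 23, 21 had an unadjusted p under 0.05 in either direction. The share of all tested genes under that looser threshold is not given here. This count is therefore a description and cannot be set against the 6.57%. Among these 21, Fn1, fibronectin, was higher in arcA livers (0.25, adjusted p = 0.106). Spp1, osteopontin, was also positive (0.28, adjusted p = 0.447), and both were chosen after their values were seen. Fbn1, fibrillin-1 of elastic microfibrils, fell by 0.77 (SE 0.142, adjusted p = 0.00174) and Lamc1, a laminin chain, by 0.37, beside the proteoglycan genes Dcn (-0.50) and Bgn (-0.47). Eln, which encodes elastin, had -0.50 (adjusted p = 0.214) and was chosen after its value was seen. With surrogate variables, 8 substrates were called lower in place of 15.

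Of 15 tested genes for factors that induce MMPs or TIMPs, 3 fell and 0 rose (median -0.21). Pdgfa, a stellate cell growth factor, fell by 0.38 (SE 0.0803, adjusted p = 0.00422), Tgfb1, which induces TIMP1 and collagens, by 0.61 (SE 0.141, adjusted p = 0.00775) and Jun, a subunit of AP-1, by 0.83 (SE 0.205, adjusted p = 0.0162). Il1b, an inflammatory cytokine, had -0.97 (adjusted p = 0.0741). The other tested Fos and Jun genes of the list were not called. Fos had 0.09 (adjusted p = 0.903), Junb 0.18 (adjusted p = 0.655), Jund -0.09 (adjusted p = 0.609) and Fosl2 -0.21 (adjusted p = 0.318). Fosb and Fosl1 did not pass the filter. All of these besides Jun were chosen after their values were seen, and a part of AP-1 was not tested.

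Markers of macrophages, stellate cells and T cells are given beside these results. Of 12 macrophage and Kupffer cell markers, 7 fell (median -0.74), among them Lyz2 (-0.86), C1qb (-0.81), C1qc (-0.80) and Cd68 (-0.83), and their sum was 129.1 to 446.1 CPM in arcA livers (median 201.0), against 312.6 to 503.8 CPM in GFP livers (median 374.3). The highest arcA sum was that of arcA 3, in which Mmp12 was at 0.0474 CPM and Mmp13 at 0. The next was that of arcA 6, with the second highest Mmp12 (0.246 CPM) and the highest Mmp13 (0.148 CPM) of the arcA livers. These ranks rest on a few reads. Mmp12 had 2 counts in arcA 3 and 10 in arcA 6, as in arcA 4, and Mmp13 had 6 in arcA 6, as in arcA 7. Without arcA 3, 12 of the 12 markers were called, without GFP 7, 3 were, and without GFP 2, GFP 3 and GFP 5, 2 were. Of 10 lipid-associated macrophage markers, 6 fell (median -1.50), with Lgals3 at -1.99, Cd63 at -1.38, Gpnmb at -2.75 and Trem2 at -2.32. The 4 not called were Cd9 (-0.36) and, in the other direction, Fabp5 (0.23), Ctsb (0.15) and Apoe (0.14), named after their values were seen. The sum of these 10 was 18157 to 25439.4 CPM in arcA livers and 20210.9 to 21801.7 CPM in GFP livers, but Apoe, which hepatocytes also express, made up 96.1% to 97.0% of it. Without Apoe the sum was 704.7 to 898.3 CPM in arcA and 658.7 to 836.2 CPM in GFP livers. Ctsb took most of that, with means of 752.2 and 676.3 CPM.

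Of 12 stellate cell and fibroblast markers, 8 fell (median -0.55), with Cygb at -0.87, Tagln at -0.70, Pdgfrb at -0.57 and Pdgfra at -0.69. Their sum was 174.4 to 279.7 CPM in arcA livers (median 231.8), against 246.0 to 280.8 CPM in GFP livers (median 260.8). All tested T cell markers fell (8 of 8, median -2.94), with sums of 0.845 to 2.51 CPM in arcA and 8.02 to 17.5 CPM in GFP livers. Cd8a, Cd8b1 and Cd3d reached at most 0.0985, 0.169 and 0.237 CPM in arcA livers, under the filter limit of 0.246 CPM. They passed through the GFP livers alone and had to differ to be tested, so this count is a description and no support. These markers were named after their values were seen. Of 10 sinusoidal endothelial markers 1 fell, Lyve1 (-0.77), with sums of 96.4 to 142.4 CPM in arcA and 105.8 to 171.5 CPM in GFP livers. Of 17 tested hepatocyte markers 3 rose, and their sums, 102020.6 to 131028.4 CPM in arcA and 99956.3 to 116556.9 CPM in GFP livers, mark the tissue as liver. The part of any of these cell types in the changes of Mmp12, Mmp13, Timp2 or the other genes was not tested.

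**Figure D4:**
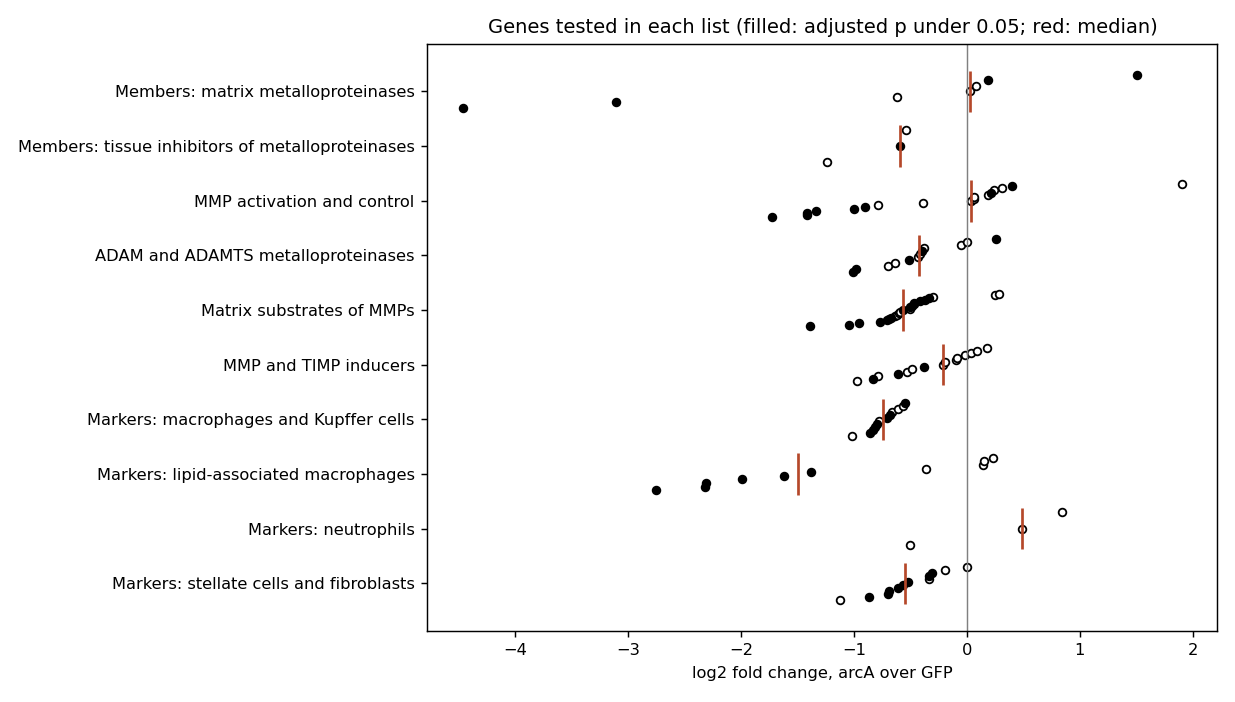
Log2 fold change of arcA over GFP (x axis) for each tested gene of 10 lists (rows), with filled points for an adjusted p under 0.05 and a red line at each list's median. The metalloproteinases spread from -4.46 to 1.51, while called matrix substrates all lie below 0 (15 of 23).

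**Figure D5:**
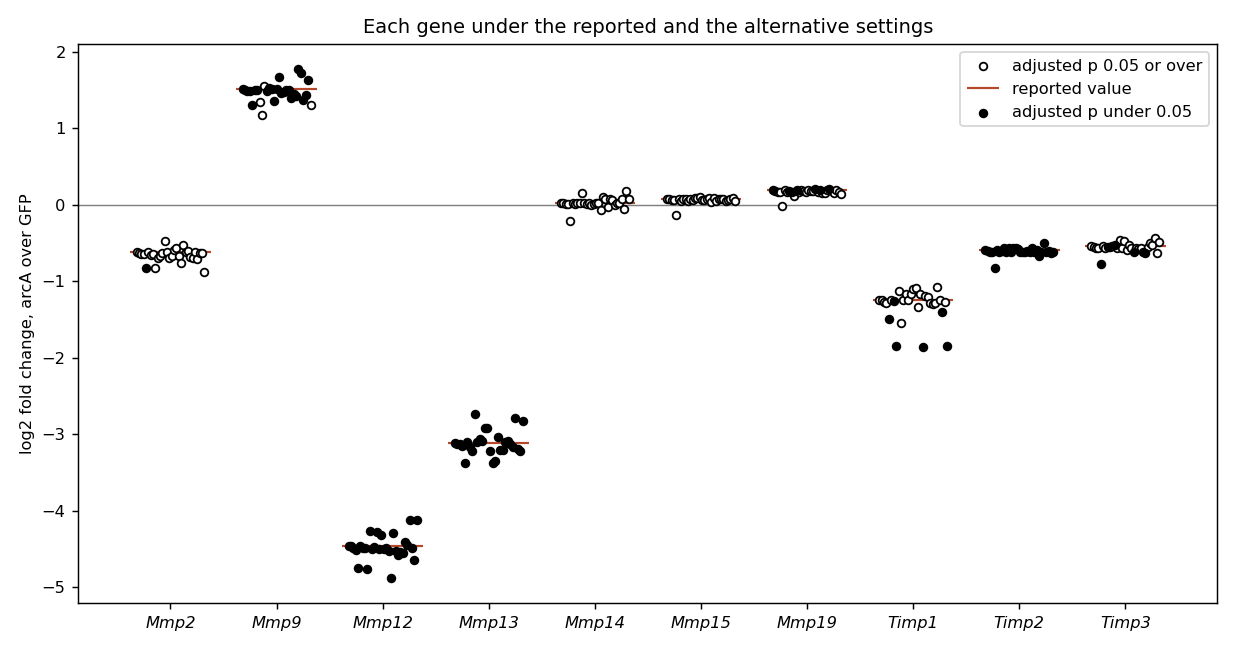
Log2 fold change of arcA over GFP (y axis) of each of the 10 genes under the reported fit and up to 29 alternatives (points, filled where the adjusted p was under 0.05), with a red line at the reported value. Mmp12, Mmp13 and Timp2 are filled throughout, and Mmp19 is filled in few alternatives.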

How the data were processed

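Liver RNA was extracted with Trizol and primed with oligo-dT, per the labels' protocols. The submitters' processing notes name bcl2fastq, STAR 2.5.1a, Subread featureCounts 1.4.6-p5 and build GRCm38; no source used here gives the annotation, strand setting or handling of mates. The authors deposited raw counts per gene. Of counts from 1 to 20, 69.8% were even, so counts were also halved as an alternative. From 40757 lines, 348 exact copies were removed and 85 repeated symbols summed. Genes were kept at 0.246 CPM in at least 8 libraries. edgeR 4.0.16 (R 4.3.3) fitted 8 arcA against 8 GFP libraries with TMM scaling and the robust quasi-likelihood test, with Benjamini-Hochberg adjustment at 0.05. Total counts ranged from 28912563 to 53520828 per library, so genes under about 1 CPM rest on few reads. Exon lengths and coordinates came from the GRCm38 annotation, promoter windows from RefSeq.

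The scripts were tested on simulated data. Text names all 10 genes, every other MMP or TIMP gene that passed the filter, and up to 4 genes with the smallest p per list; exceptions are stated. One gene of the list of MMP activation and control is counted there and not reported here by name. The genes and lists were chosen with earlier results of these data known. Alternatives were RLE, upper-quartile, library-size and hepatocyte-marker scaling, no filter, a filter of 1 CPM in 8 libraries, DESeq2 1.42.0, limma 3.58.1 voom, 5 surrogate variables (sva 3.50.0), a replicate block, halved counts and left-out libraries. Nothing in the labels says that replicates shared a batch, and p-values set the group difference against the spread between these livers.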

Additional observations from a re-analysis of the deposited data

Results flagged for a closer look

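In 4 of 28 groups of livers, 1 liver stood apart by Dixon's test at the 95% level, a test that flags about 1 in 20 groups by chance. Timp1 in arcA 8 was 1.06 CPM, against 0.0543 to 0.443 CPM in the other arcA livers. Mmp12 in GFP 7 was 10.2 CPM, against 1.91 to 5.36 CPM in the other GFP livers, and Mmp13 in the same liver was 1.35 CPM, against 0.314 to 0.726 CPM. Mmp17 in GFP 3 was 1.76 CPM, against 0.426 to 0.751 CPM in the other GFP livers. The cause was not tested for any of them.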

How the results depend on the processing

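Mmp12 was called lower in all 29 alternatives (-4.87 to -4.12), Timp2 in all 29 (-0.82 to -0.50) and Mmp13 in all 27 in which it was tested (-3.38 to -2.73). All alternatives refit the same livers. In the reported fit Mmp13 passed the filter through the GFP livers alone and Mmp12 mainly through them. For these 2 genes the repeated calls are a description and no further support. The number of the 10 genes called higher, 2 as reported, was 1 with RLE, upper-quartile, library-size or hepatocyte-marker scaling, without a filter, with limma voom, with the replicate block, with halved counts and without GFP 2, 3 and 5. It was 0 with the filter of 1 CPM, with surrogate variables and without arcA 3 and 8, and 1 to 2 without 1 library. The number called lower, 3 as reported, was 6 with hepatocyte-marker scaling, 5 with DESeq2 and 3 to 4 without 1 library. Mmp9, Mmp13 and Timp1 were not tested with the filter of 1 CPM, nor was Mmp13 with halved counts. With hepatocyte-marker scaling, Mmp14 (-0.21), Mmp15 (-0.13) and Mmp19 (-0.02) changed sign, and leaving out 1 library moved Mmp14 between -0.07 and 0.10; none of these values was called, and the cause was not tested.

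Same-numbered livers deviated with r of -0.0487 to 0.159 over 8 pairs, 2 of them over 0.1, and 1 arcA liver was closest to its own number. These values show no clear pairing by number. They cannot tell whether same-numbered livers shared a litter or a batch, which the labels do not state. With the replicate block, 592 genes were called higher and 876 lower, against 617 and 951 as reported. The counts higher and lower were 54 and 2940 with hepatocyte-marker scaling, 253 and 800 with library size, 407 and 784 with the filter of 1 CPM, and 369 and 818 without GFP 2, 3 and 5. Without 1 library they were 389 to 638 higher and 731 to 1046 lower.

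Macrophage markers called lower, 7 as reported, numbered 2 to 12 over the alternatives. With surrogate variables, substrates called lower were 8 in place of 15 and stellate markers 5 in place of 8. With the filter of 1 CPM, genes of MMP control called lower were 1 in place of 6 and T cell markers 1 in place of 8. With hepatocyte-marker scaling, inducers called lower were 8 in place of 3, endothelial markers 4 in place of 1 and hepatocyte markers 2 in place of 0; ADAM genes called higher were 0 in place of 1. Genes of MMP control called higher, 2 as reported, numbered 0 to 3. Depth limits Mmp9, Mmp12, Mmp13 and Timp1 most, with 22 to 223 counts over the arcA group.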

Other observations

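Genes whose levels varied most like Mmp12, Mmp2 and Timp1 between livers, after the group means were taken out, are named as a description over 16 livers that share library depth. The likeness is a Pearson correlation of log2 CPM over 11161 candidate genes (11162 for Timp1), highest of many, with no test. For Mmp12 they were Sprr1a (0.849), Cdc42ep4 (0.845) and Acsf3 (0.801). For Mmp2 they were Adamtsl2 (0.868), Htra1 (0.803) and Rnf34 (0.796), and for Timp1 Slc35f5 (0.771), Cyp2r1 (0.769) and Asah1 (0.766).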
